A study of Mus musculus with 2 samples.

Results

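The cells described here are the enteric glia of the mouse colon, taken as the non-epithelial cells of a droplet single-cell RNA library that hold S100b transcripts. They were chosen by 4 measured genes: Epcam below 5 corrected counts, S100b at 2 or more, Pecam1 below 3 and Rgs5 below 10. Of the 7495 cells of the library, 4487 had Epcam below 5, and 67 of these met the whole rule, which is 1.49% of the Epcam-low cells (exact Clopper-Pearson 95% interval 1.16% to 1.89%). The other 4420 Epcam-low cells are the comparison throughout. The series holds 11904 cells in all.

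The study profiled colonic epithelium and mesenchyme of mice aged 8 to 12 weeks. The wt_colon group, from which all 67 cells come, is 1 library of C57BL/6 wild-type colon pooled from 3 female mice, with viable EpCAM-positive and EpCAM-negative cells, both sorted as CD45-negative, mixed in equal parts. The pdgfraegfp_colon group is 1 library of mesenchymal cells from Pdgfra-H2B-eGFP mice, a line in which the Pdgfra locus drives a nuclear green fluorescent protein, sorted for that protein and likewise pooled from 3 female mice. The labels name no treatment for either group. Cells carry no record of the mouse they came from, so each group is 1 sample. The intervals below cover counting error only, no difference was put to a test, and 'called' stands for a fold and a share of cells, not for significance.

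Enteric glia are neural crest derived cells that surround the neurons and nerve fibres of the gut wall and lie beneath the crypts in the mucosa. They share with Schwann cells the transcription factor Sox10, which keeps neural crest cells glial, and proteins of peripheral myelin without forming compact myelin. S100b, a calcium-binding protein, and Gfap, a glial intermediate filament, are the proteins by which they are usually stained.

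Values are corrected counts, whole numbers of 3′ transcripts after the authors' adjustment for the depth of each cell. The Epcam-high cells, the 67 glia cells and the rest were placed in classes by thresholds on Epcam, Pecam1, Rgs5, Myh11 and Col1a1, which gave 3008 epithelial cells, 2433 fibroblasts, 831 smooth muscle cells, 677 endothelial cells, 221 pericytes and 258 remaining cells. Corrected totals ran from 6120 to 16389 per cell, with medians between 7909 in glia cells and 9648 in epithelial cells, and glia cells held a median of 2329 detected genes against 2626 in fibroblasts and 3145 in epithelial cells. Glia cells carried a median of 7.85% mitochondrial counts against 8.31% in fibroblasts. The 2 libraries shared 1 cell barcode. Scrublet marked 7 cells of the library and 0 of the 67 as doublets, too few for the call to be used. The means of the members and of the comparison are both means over cells of this library.

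S100b itself ran from 2 to 12 corrected counts in the 67 cells, with a median of 4, a description since it chose them. The label was checked on 22 other enteric glia markers, none of which entered the rule, although Kcna1, Kcna2, Gpr37l1 and Sostdc1 among them were taken up as leading genes of these same data and the list was drawn up with such results known. The check is therefore a description. Of these, 21 were called higher in glia cells and 0 lower, where a called gene differed 2-fold or more in mean and was detected in 10% or more of the cells on its higher side. Over all 14424 genes with 20 or more corrected counts, 6.65% were called higher in glia cells and 9.43% lower. The median log2 ratio of the 22 markers was 6.24, against -0.25 over all 14424 genes, on the scale of mean corrected count plus 0.01. The summed level of the whole list with S100b ran from 11 to 226 per glia cell (median 133) and had a median of 3 in the other cells.

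Many of the 22 markers were present together in nearly every member, although no member held more than 20. Per cell, 65 of the 67 held 9 or more of them, whereas 98.8% of the other Epcam-low cells held 4 or fewer. The exceptions were a cell with 3 markers and a cell with 8. Gpr37l1 was above 0 in 64 of 67 glia cells (95.5%), against 0.317% of the other Epcam-low cells and 0.133% of epithelial cells. Sox10 was above 0 in 71.6% of glia cells (59.3% to 82.0%) and Sox2 in 44.8%, against 0.317% and 0.181% of the other cells. Gfap, although a classical marker, was above 0 in 14 of the 67 cells (20.9%, interval 11.9% to 32.6%) with a highest value of 7.

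The S100b threshold cut through cells with the marker set. The 12 members with S100b at exactly 2 held a median of 15 of the 22 markers, and 11 of them held 9 or more. Just outside, the 12 Epcam-low cells with S100b at 1 split: 6 of them held 9 or more markers and the other 6 held 4 or fewer. A further 6 cells with S100b at 0 held 9 or more markers, and a cell with 18 markers was left out for Pecam1 at 4. The epithelial class held a cell with S100b at 2 or more and 17 markers, at Epcam 20. In all, 13 Epcam-low cells with 9 or more markers lay outside the rule and are part of the comparison.

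Of the members, 5 stood apart by limits chosen after their values were seen: fewer than 9 markers, a fibroblast gene sum above 150 or a smooth muscle and pericyte gene sum above 50. A cell with 19 markers had a fibroblast gene sum of 508, with Dcn at 127. Another 3 held smooth muscle transcripts, with Acta2 at 66, 122 and 130, while no other member had Acta2 above 3. The cell with 8 markers had Cst3 at 712. The values of smooth muscle and fibroblast genes, which rest on these cells, are given with and without them below.

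**Figure D1:**
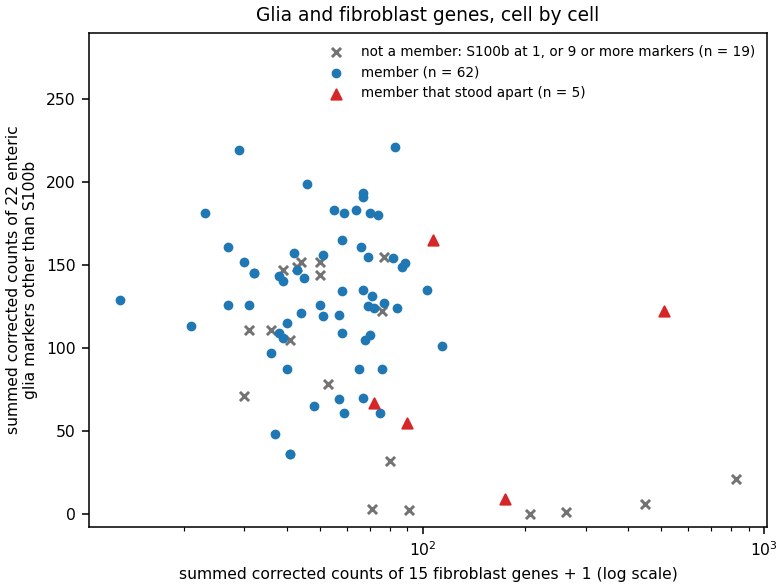
Each point is a cell, the horizontal axis is the summed corrected count of 15 fibroblast genes plus 1 on a log scale and the vertical axis the sum of 22 enteric glia markers other than S100b. The 62 members drawn as circles lie between fibroblast sums of 12 and 113, the 5 that stood apart are triangles, and crosses are the 19 Epcam-low cells outside the rule with S100b at 1 or with 9 or more markers.

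The genes with the largest ratio over the other Epcam-low cells, after S100b, included Kcna1, Kcna2, Sostdc1 and Gpr37l1, which is a description, since a gene of the same cells chose them. Kcna1 ranged from 0 to 34 (median 11), with a mean of 11.2 against 0.0278 (log2 ratio 8.21). Kcna2 ranged from 0 to 21 (median 8), with a mean of 8.07 against 0.0219 (log2 ratio 7.98). Both encode subunits of voltage-gated potassium channels, and they were above 0 together in 61 of the 67 cells. Gpr37l1, an orphan receptor of glia, ranged from 0 to 14 (median 6) at a mean of 6.18 against 0.0176, and Sostdc1, a secreted antagonist of BMP and Wnt signaling, from 0 to 31 (median 5) at 6.63 against 0.0179. All 4 were at 0 in some members and above 0 in at least 88.1% of them, and in the other cells none was above 0 in more than 0.656%. For all 4, most counts of the comparison lay in the 13 cells with 9 or more markers left outside the rule. Kcna1 had a mean of 4.17 in the 12 other cells with S100b at 1 and of 0.0132 in those at 0. The comparison means are therefore higher, and the ratios lower, than they would be without those 13 cells.

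Among the 25 genes with the largest ratio, the smallest log2 ratio was 6.23. They fell into a few kinds by what their products do. Adhesion molecules and their partners were Cdh19, a cadherin of neural crest glia (mean 3.94 against 0.0122, log2 ratio 7.47), Chl1 (mean 5.27 against 0.0262, log2 ratio 7.19), Cadm4 (mean 2.34 against 0.0183, log2 ratio 6.38), Cadm2 and the receptor phosphatase Ptprz1 (mean 2.64 against 0.00724, log2 ratio 7.27). Ank3, the ankyrin that anchors channels at nodes and initial segments of axons, had the highest mean of the 25 at 12.4. The receptor subunits were Gfra1 and Gfra3, and the transcription factors were Sox10, Foxd3 and Sox2. Kcna6 joined the other 2 channel genes at 1.25 against 0.00543. The remaining genes of the set included Sfrp5, a secreted Wnt inhibitor, the lipid-binding protein gene Fabp7 and Fcgr2b, an inhibitory Fc receptor gene known from immune cells. Fcgr2b was above 0 in 55.2% of glia cells. The pan-immune gene Ptprc was at 0 in all 67, but in this CD45-negative sort only 0.928% of the other cells held it. The rest of the 25 were Tmprss5, a membrane serine protease gene (mean 2.57 against 0.00611, log2 ratio 7.32), Cmtm5, Slc35f1 and Csmd1.

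**Figure D2:**
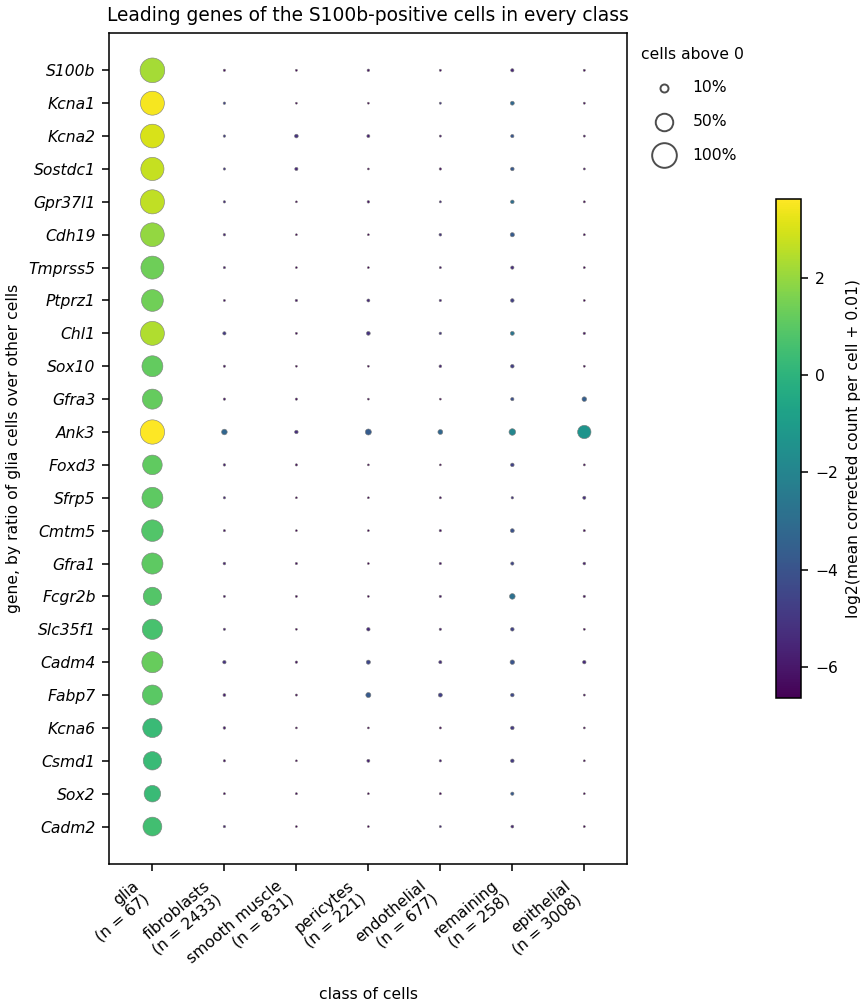
Dots give 24 of the 25 leading genes (rows) in the 7 classes of cells (columns), where colour is log2 of the mean corrected count plus 0.01 and area the percent of cells above 0. The glia column holds the large bright dots, and Ank3 is the row with the largest dots elsewhere, at a mean of 0.384 in epithelial cells and 0.0912 in fibroblasts.

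The reference promoters of these genes, 250 bases before to 50 after the start site (RefSeq, build GRCm38.p6), were searched for the letters ACAAAG and ACAATG on either strand, short motifs of the kind that Sox factors bind, since Sox10 and Sox2 are in the set. Matches of the 2 motifs cannot overlap each other. Entries were found for 17 of the 25 genes. Of these, 4 held a match (23.5%), against 31.7% of the 27025 genes with an entry. Counted by promoter, the shares were 26.3% of 19 and 28.6% of 32851. The set is too small for either difference to be read. The promoter of S100b, the gene that defines the cells, and those of Chl1, Cadm4 and Sox2, which held a match, are shown, with matches in capitals, as CTTTGT or CATTGT where the motif lies on the other strand.
S100b, chr10:76253586-76253885, plus strand: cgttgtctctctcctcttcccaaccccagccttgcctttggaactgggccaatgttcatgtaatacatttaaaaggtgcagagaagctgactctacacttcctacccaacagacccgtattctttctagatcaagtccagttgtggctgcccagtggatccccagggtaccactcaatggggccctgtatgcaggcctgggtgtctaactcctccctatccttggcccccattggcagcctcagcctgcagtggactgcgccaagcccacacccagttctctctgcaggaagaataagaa
Chl1, chr6:103510626-103510925, plus strand: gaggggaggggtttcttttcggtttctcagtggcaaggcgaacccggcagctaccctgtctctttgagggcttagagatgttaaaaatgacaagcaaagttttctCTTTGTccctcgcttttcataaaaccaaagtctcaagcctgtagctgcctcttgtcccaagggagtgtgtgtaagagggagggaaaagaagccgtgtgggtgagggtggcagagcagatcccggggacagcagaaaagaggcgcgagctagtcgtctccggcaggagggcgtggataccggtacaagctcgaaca
Cadm4, chr7:24481773-24482072, plus strand: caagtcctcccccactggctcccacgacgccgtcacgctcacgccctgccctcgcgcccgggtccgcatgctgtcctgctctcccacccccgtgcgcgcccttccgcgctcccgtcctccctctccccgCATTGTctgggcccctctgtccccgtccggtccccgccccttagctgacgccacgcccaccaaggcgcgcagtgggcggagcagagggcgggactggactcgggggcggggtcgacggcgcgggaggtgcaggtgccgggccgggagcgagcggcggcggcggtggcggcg
Sox2, chr3:34649745-34650044, plus strand: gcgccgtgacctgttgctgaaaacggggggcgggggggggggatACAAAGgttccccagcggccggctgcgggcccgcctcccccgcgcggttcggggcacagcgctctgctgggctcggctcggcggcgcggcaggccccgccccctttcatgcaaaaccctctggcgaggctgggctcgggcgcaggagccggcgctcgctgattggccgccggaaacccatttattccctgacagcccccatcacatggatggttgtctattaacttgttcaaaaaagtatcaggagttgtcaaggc
The S100b window held no match. The genes lie, in GENCODE M21 on GRCm38, at chr10:76253853-76261159 (S100b), chr6:103510586-103750211 (Chl1), chr7:24482023-24504539 (Cadm4) and chr3:34650405-34652461 (Sox2), all on the plus strand. The GENCODE start of Sox2 lies downstream of the RefSeq window. No match says only that the letters are not in that window.

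Of the transcription factors of the neural crest and glial lineage, 10 of the 26 counted genes were called higher and 3 lower, with a median log2 ratio of 0.47. Foxd3, a factor of early crest cells, was above 0 in 62.7% of glia cells and shared with Sox10 in 34 of them. Hand2, required for enteric neurons, was above 0 in 85.1% of glia cells against 4.23% of the others. Etv1, Egr2, Pou3f1, Sox6 and Tfap2a were also called higher. Sox9, a factor of neural crest and glial progenitors, was at 0 in all 67 cells, which allows a share of up to 4.48% of cells with a detected count and does not limit the share that express the gene, and was at a mean of 0.425 in the others. The BMP target Id1 was called lower, at 0.91 against 3.52.

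Of 15 receptor genes for neuregulin, GDNF family ligands, endothelin and neurotrophins, 6 were called higher and 1 lower. Erbb3, the neuregulin receptor on which Schwann cells and their precursors depend, ranged from 0 to 9 (median 2) and was above 0 in 79.1% of glia cells against 1.38% of the others. All 3 coreceptors of the GDNF family that were in the list were called higher, Gfra1 at 2.09 against 0.0086, Gfra2 at 3.15 against 0.121 and Gfra3 at 2.27 against 0.00588, and Gfra1 and Gfra3 were above 0 together in 36 cells. These proteins bind the ligand and pass it to the kinase Ret. Ret was at 0 in all 67 cells and at 0.0244 in the others. Ngfr, the low-affinity neurotrophin receptor, was above 0 in 29.9%. Ednrb, the endothelin receptor needed for gut colonisation by crest cells, was at 0.358 against 0.546 and not called, and Ednra was called lower at 0.0448 against 0.649.

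Of 12 genes of myelin and Schwann cells, 10 were called higher and 0 lower, with a median log2 ratio of 2.82. Mal ranged from 0 to 12 (median 3) at a mean of 3.3 against 0.0405, Cnp from 0 to 17 (median 5) at 5.84 against 0.177, and Pmp22, which fibroblasts also express, from 0 to 31 (median 14) at 14.2 against 3.82. Mbp was above 0 in 43.3% of the cells. The Egr2, Pou3f1, Drp2 and Dhh genes of the Schwann cell programme were also called higher, the last 2 at means of 0.179 and 0.134.

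Neuronal transcripts were near 0. Of 20 enteric neuron markers, 14 were at 0 in all 67 cells, among them Elavl4, Snap25, Syt1, Nos1, Chat and Stmn2, and the summed level of the list ran from 0 to 8 with a median of 1. Uchl1 (0.328 against 0.0224) and Tubb3 (0.328 against 0.0559) were among the 3 called higher. Stmn2 was called lower, at 0 against 1.5 in the other cells and 2.02 in fibroblasts. The list's median log2 ratio was -1.32, or 1.14 with the genes at 0 set to 3 counts over the 67 cells. In the list of filaments and cytoskeleton, 8 of 15 genes were called higher and 2 lower, the former including Gfap, Map2, Stmn1 (3.42 against 0.45) and Marcks, a membrane substrate of protein kinase C (14.8 against 1.46), and Vim was at 39.3 against 21.5, not called.

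Of the markers of other cell types that the sort could hold, endothelial genes had the lowest median, -5.79, or -3.95 with genes at 0 set to 3 counts. Of the 12, 9 were called lower and 8 were at 0 in all members, Pecam1 of the rule among them, and the list's sum ran from 0 to 5. Of 12 immune markers, 10 were at 0 in all members, including Ptprc, Tyrobp and Csf1r, in a library sorted as CD45-negative. Their sum ran from 0 to 14, and Lyz2, the gene called higher, reached 14. Of the 6 genes that mark interstitial cells of Cajal, which also lie close to enteric nerves, 1 was called higher in the glia cells and 2 lower. The first was Etv1 (1.57 against 0.323), a factor also counted among the glial ones, and the others were Cd34 and Gja1, while of the defining genes Kit was at 0 in all 67 cells and Ano1 at 0.0299 against 0.164. Epithelial genes stood at the level of the rest: 0 of 12 were called in either direction, the list's median log2 ratio was 0.05, and each gene's mean in glia cells was 0.852% to 5.72% of that in epithelial cells, against 1.38% to 4.02% in fibroblasts. Epcam, which entered the rule, was above 0 in 64.2% of the members.

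Of the Kcna family and its beta subunits, Kcna1, Kcna2 and Kcna6 were called higher, and the other 6 genes in the table, Kcna4, Kcna5, Kcna7 and the 3 Kcnab genes, were at 0 in all 67 cells. Those 6 were near 0 in the other cells too, at means of 0.00136 to 0.0131, so their zeros show no difference. The sodium channel gene Scn7a, known from non-myelinating Schwann cells, ranged from 0 to 86 (median 20) at a mean of 21.7 against 0.578. In the list of transmitter and purine receptors and enzymes, 5 of 23 genes were called higher and 5 lower. Entpd2, the ecto-nucleotidase that marks enteric glia, ranged from 0 to 21 (median 5) at a mean of 6.7 against 1.45, with fibroblasts at 2.47. The lysophosphatidic acid receptor gene Lpar1 (4.55 against 1.94), the sphingosine phosphate receptor gene S1pr3 (0.97 against 0.0615) and the ATP-gated channel gene P2rx7 (0.522 against 0.0566) were the other 3 beside Gpr37l1. P2ry1, a purine receptor, and S1pr1 were at 0 in all members, against 0.174 and 0.295 in the other cells.

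Of 16 genes for glutamate, GABA and glutamine handling, 0 were called higher and 1 lower. Over all genes the shares were 6.65% and 9.43%, so these counts do not set the list apart. The astrocyte glutamate transporter gene Slc1a3 was at 0 in all 67 cells and at only 0.0256 in the others. The glutamine synthetase gene Glul was the one called lower, at 0.597 against 1.42. Of the connexins and pannexins, Gjc3, a connexin of myelinating glia, was above 0 in 26.9% of glia cells against 0.136% of the others, and Panx1 in 20.9%, while Gja1, the connexin of astrocytes, was called lower at 0.0597 against 1.33.

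Of 36 secreted growth factor and cytokine genes, 9 were called higher and 9 lower. Pdgfa, Pdgfb, Ptn, Tgfb2, Fgf2, Cxcl1 and Cxcl2 had their highest class mean in the glia cells. Pdgfa, a ligand of the receptor Pdgfra that fibroblasts carry, ranged from 0 to 46 (median 11), with a mean of 12.6 in glia cells, 0.182 in fibroblasts, 0.95 in pericytes and 1.02 in epithelial cells. Ptn, a heparin-binding growth factor, ranged from 0 to 19 (median 7) at a mean of 7.81 against 0.151, and Tgfb2 from 0 to 24 (median 4) at 4.76 against 0.442. Hbegf, a ligand of the EGF receptor, ranged from 0 to 16 (median 3), and its mean of 4.01 was near that of epithelial cells (4.43), with fibroblasts at 0.289. Pdgfb was at 1.96, with endothelial cells, its known source, at 1.08. The chemokine gene Cxcl1 was uneven, being above 0 in 38.8% of the cells, with a median of 0 and a highest value of 75, and its mean of 5.48 was close to that of pericytes (5.17). Cxcl12 was called lower at 0.522 against 10.2, Nrg1 at 0.0149 against 0.308 and Ntf3 was at 0 in all members. The neurotrophic ligands Bdnf and Artn were at 0 in all 67 cells, and Gdnf was at 0.0896 against 0.141.

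Of 30 Wnt and BMP ligands and secreted modulators, 5 were called higher and 11 lower. Those called higher were the inhibitors Sfrp1, Sfrp5, Frzb and Sostdc1 and the ligand Wnt6. Sfrp1, a secreted Wnt antagonist, ranged from 0 to 32 (median 13) at a mean of 12.8, against 3.49 in fibroblasts. Sfrp5 ranged from 0 to 11 (median 1) and was above 0 in 71.6% of glia cells and 0.288% of fibroblasts. Wnt6 was above 0 in 41.8% of the members (interval 29.8% to 54.5%), with a highest value of 5 and a mean of 0.881 against 0.057, and in 4.27% of fibroblasts. Wnt4, Bmp3, Bmp7, Rspo1, Rspo3 and Sfrp2 were at 0 in all 67 cells, with the same limit on detection. Of these, Rspo1 and Rspo3 were also low in the other cells, at means of 0.026 and 0.122. Bmp4 was at 0.731 against 5.46, Bmp5 at 0.104 against 1.89 and Grem1, a BMP antagonist of crypt-base fibroblasts, at 0.0149 against 0.854. The list's median log2 ratio was -2.90, or -1.07 with the 17 genes at 0 set to 3 counts.

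Adhesion molecules of the contact between axon and glia were, of the lists, most often called higher after the glia and myelin genes. Of them, 20 of the 31 counted genes were called higher and 1 lower, with a median log2 ratio of 1.99. L1cam ranged from 0 to 11 (median 3) at 3.52 against 0.0387, Lgi4, a secreted ligand that glia need to wrap axons, from 0 to 10 (median 4) at 3.91 against 0.079, and Adam23, an axonal partner of Lgi proteins, from 0 to 12 (median 3) at 3.58 against 0.583. Cntn1, Cntnap4, Nfasc and Nrxn2 were at 0 in all members. They were near 0 in the other cells too, at means of 0.0443, 0.0229, 0.0043 and 0.0138, so their zeros show no difference. Cadm1, Cadm3, Cdh2, Nlgn3 and the integrin genes Itga6, Itgb4 and Itgb8 were also called higher. Gpm6b, a membrane protein gene of neurons and glia, was at 6.96 against 0.492.

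Of 28 basement membrane and matrix genes, 9 were called higher and 7 lower. Sparc, a collagen-binding protein, ranged from 29 to 174 (median 73) at a mean of 80.4, against 31.4 in fibroblasts. Col18a1, a collagen of basement membranes, was at 8.07 against 1.29 in fibroblasts, Matn2 at 8.22 against 2.28, and Matn4, Agrn, Nid2, Col5a3, Timp3 and the peripheral nerve collagen Col28a1 were called higher too. Col4a1, the general basement membrane collagen, was at 5.04 against 6.47 and not called, Postn at 8.52 against 11.4, and Col4a5 was at 0 in all members.

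Genes of lipid and cholesterol handling were called higher for 12 of 24 and lower for 0, with a median log2 ratio of 1.02. Apoe, the lipid carrier that glia secrete, ranged from 0 to 291 (median 70) and averaged 79.7, against 2.52 in fibroblasts and 5.42 in endothelial cells. Apod, another carrier, was above 0 in 31 cells, all of which also held Apoe, and reached 60. The transporter gene Abca8a (6.22 against 0.619), the fatty acid desaturase genes Scd2 (2.81 against 0.38) and Fads1 (1.64 against 0.191) and the isoprenoid gene Idi1 (0.925 against 0.204) were further examples.

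Of 14 antigen presentation genes, 3 of class I were called higher and 1 lower, and those of class II were near 0. H2-D1 ranged from 0 to 70 (median 29) at 29.8 against 9.55 and B2m from 2 to 42 (median 15) at 15.1 against 7.33, both called, with endothelial cells at 15.5 for B2m. H2-K1 was at 10.7 against 6.02, not called, and H2-T23 was called lower at 0.716 against 2.17. Cd74 was at 0.0448 against 1.38 and Ciita, the master regulator of class II, at 0 in all members. Immediate early genes, which respond to tissue dissociation as well as to signals, were called higher for 7 of 22, among them Fos (56.2 against 23.9), Atf3 (14.3 against 3.01), Klf6 (log2 ratio 2.15) and Socs3 (11.7 against 3.93). Fos ranged from 4 to 202 (median 52) and Atf3 from 0 to 115 (median 10), while Jund was at 17.0 against 17.0 and the heat shock gene Hspa1a at 10.6 against 9.55. The summed level of that list had a median of 293 in glia cells and 145 in the other cells. Its mean was 291 in glia cells, 248 in pericytes and 240 in endothelial cells, against 170 in smooth muscle cells and 145 in fibroblasts. A high level was therefore not particular to glia cells. The part of dissociation in these values was not tested. Of the S100 family, S100a4 was the gene called higher besides S100b (2.66 against 0.925), and S100a6 was at 28.7 against 47.6. Of 16 cell cycle genes, 0 were called in either direction, and their sum ran from 0 to 4.

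**Figure D3:**
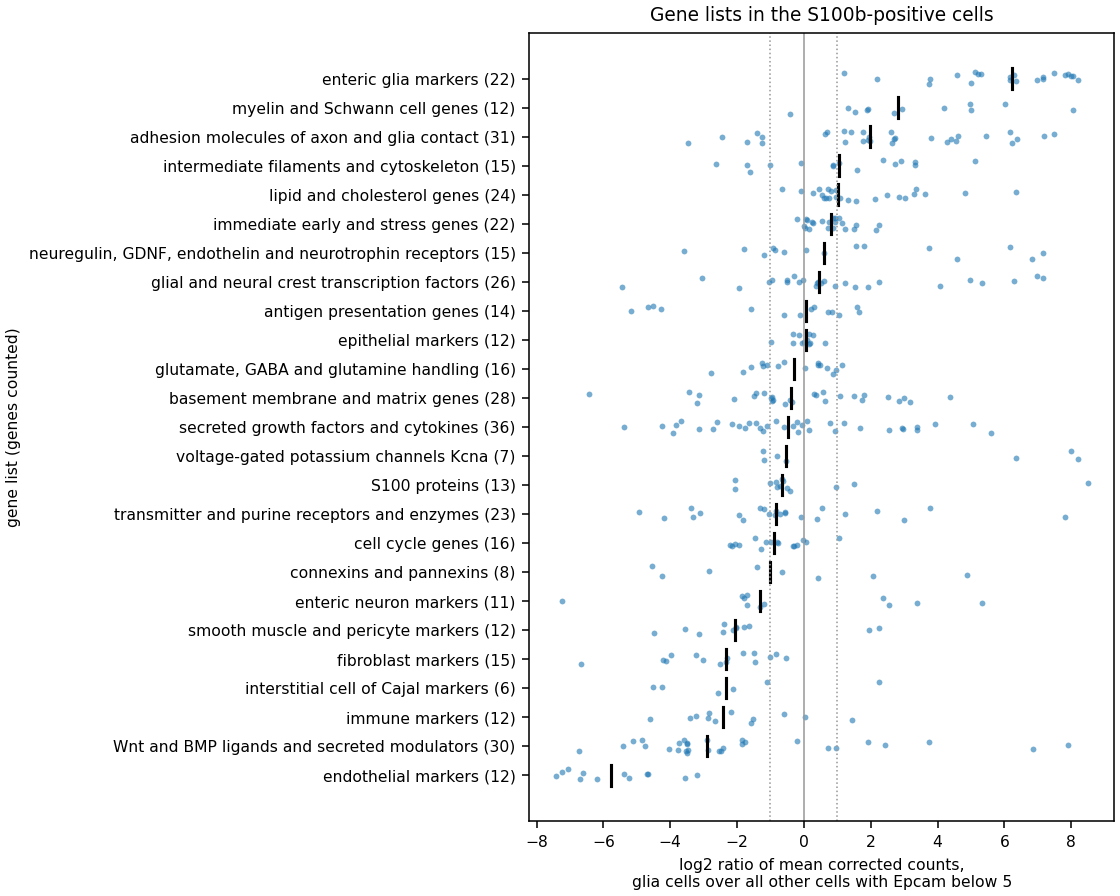
Each point is a gene of a list, placed by the log2 ratio of mean corrected counts of glia cells over all other Epcam-low cells (pseudocount 0.01), black bars are list medians, dotted lines mark 2-fold and numbers in parentheses count the genes. S100b is left out of the glia markers, whose median of 6.24 is the highest, and endothelial markers have the lowest at -5.79.

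By corrected count, without division by transcript length, the genes with the highest means in glia cells outside mitochondrial and ribosomal protein genes were Prnp, Sparc, Apoe, Fos, Tmsb4x, Igfbp7, Cst3, Actb, Tpt1 and Ubb. Prnp, the prion protein gene, ranged from 5 to 237 (median 109) at a mean of 104, against 3.36 in fibroblasts and 0.891 in epithelial cells. Igfbp7, Tmsb4x, Actb, Tpt1 and Ubb were not called. Among genes found in at least 50% of the other cells, the 10 lowest in glia cells were Gpx3, Pdgfra, Adamdec1, Igfbp3, Gm13889, Ifitm1, Ccdc80, Tmem119, Mgp and Ms4a4d, with log2 ratios from -6.89 to -4.85. Adamdec1, a metalloprotease of gut stroma, was at 0.194 in glia cells and 27.1 in fibroblasts, and Pdgfra was above 0 in 1 of the 67 cells, at 1 corrected count.

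Transcripts of fibroblast marker genes were present in the glia cells, at levels that differed between genes. Summed over 15 fibroblast markers, the corrected count ran from 12 to 508 per glia cell (median 57) against a median of 386 in fibroblasts, and the mean was 16.4% of the fibroblast mean. Gsn and collagens carried most of it: of a mean sum of 64.4, Gsn gave 28.2, Col3a1 10.0, Col1a1 7.43 and Col1a2 5.12. The same sum was 24.3% in smooth muscle cells, 23.2% in pericytes, 5.12% in endothelial cells and 3.31% in epithelial cells. Without the 5 members that stood apart, 1 of them at 508, it was 13.8% in glia cells, a value that the choice of those cells lowers by construction. Against the other Epcam-low cells, 13 of the 15 genes were called lower, 0 higher, and Col1a1 and Col6a3 were not called.

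Gene by gene, the mean in glia cells ran from 0.357% of the fibroblast mean for Pdgfra, which was 1 count in all 67 cells, to 46.8% for Col6a3. The span was 43.7-fold with Pdgfra set to the floor of 3 counts over the 67 cells and 14.2-fold without Pdgfra. In endothelial cells the 15 percentages ran from 3.55% to 9.17% and in epithelial cells from 2.78% to 5.3%, spans of 2.58-fold and 1.91-fold. The span was 30.5-fold in smooth muscle cells (8.57-fold without Mfap5, which stood at 187%) and 6.83-fold in pericytes, so other classes were uneven too. In the remaining cells it was 5.79-fold, but the class rule held their Col1a1 below 5, and Col1a1 was their lowest gene at 8.72%. The higher genes in glia cells were Col6a3, Col1a1 (36.3%), Col6a1 (34.6%), Col1a2 (23.5%), Gsn, an actin-severing protein (21.7%), and Col3a1 (19.4%). Dcn, the most abundant small proteoglycan of fibroblasts, was at 3.56%, Lum at 3.99% and Dpt at 3.29%. In epithelial cells Dcn was at 2.81%, Lum at 3.66% and Dpt at 3.38%. Without the 5 members that stood apart, Dcn was at 1.06%, Lum at 1.18% and Dpt at 1.63%, while Col6a3 was at 46.6%, Col6a1 at 30.8% and Gsn at 19.4%. The 62 cells so kept all held Gsn and 58 held Col1a1, and Pdgfra was at 0 in each of them.

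Cell by cell, Col1a1 ranged from 0 to 22 (median 7) in glia cells and was above 0 in 94.0% of them, against 59.1% of endothelial and 18.2% of epithelial cells, whose median totals were 7996 and 9648. Dcn ranged from 0 to 127 (median 1) and was above 0 in 64.2%, against 76.1% and 20.1%. So Col1a1 was found in more glia than endothelial cells and Dcn in fewer. Across the 67 cells the sums of fibroblast genes and of the 22 glia markers had a Spearman rho of -0.0387, a description of cells that share a library. The 35 members with the lowest fibroblast sums (12 to 57) had a median glia marker sum of 126 and the other 32 (58 to 508) of 129. Where the RNA of these fibroblast marker genes in glia cells came from, the glia cells themselves included, was not tested.

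**Figure D4:**
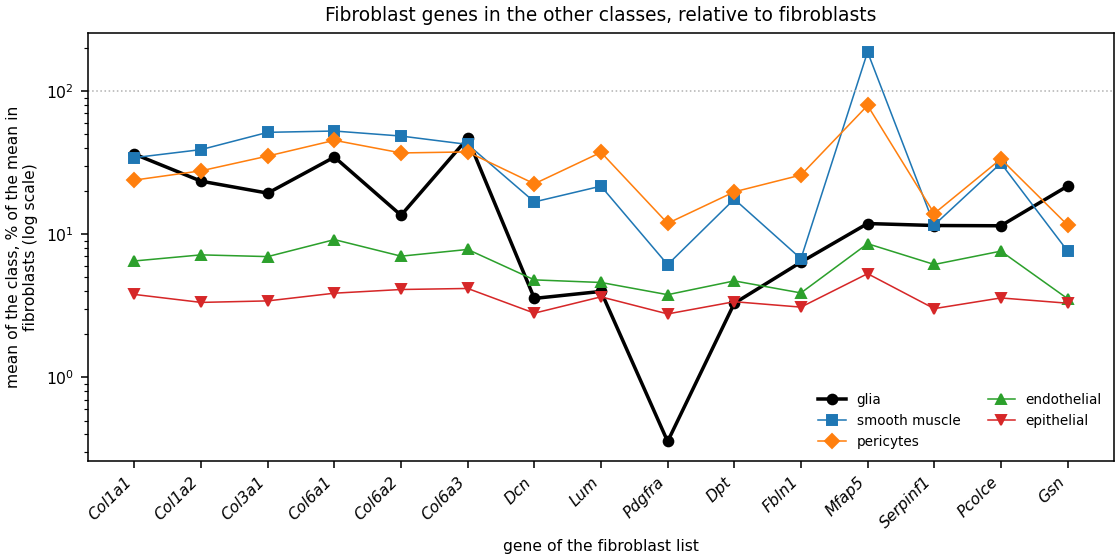
For each of 15 fibroblast genes, points give the class mean as a percent of the mean in fibroblasts, on a log scale, for glia, smooth muscle, pericytes, endothelial and epithelial cells. The endothelial and epithelial lines are nearly level, whereas the glia line runs from 46.8% at Col6a3 to 0.357% at Pdgfra.

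Among the members, the genes with the largest variance over mean were Cst3, Acta2, Dcn, Tagln, mt-Rnr2, Tpm2, Apoe, Iigp1, Fos and Apod. For Acta2, Tagln, Tpm2 and Dcn the spread lay in the members that stood apart. Without them the highest values were 3, 3, 3 and 4, where they had been 130, 89, 51 and 127. Cst3, a secreted protease inhibitor, still reached 451, and its log2 ratio of 1.30 became 1.00 without the cell at 712 and the others that stood apart, just under 2-fold. Iigp1, an interferon-induced GTPase, had a median of 0 and a highest cell of 60, with a mean of 1.64 against 10.1 in endothelial cells. The smooth muscle and pericyte list had 9 of 12 genes called lower, Rgs5 of the rule among them, or 8 of 11 without it, and the same counts without the members that stood apart. The list's median log2 ratio was -2.07 and became -5.75 without these members, or -4.64 with the 3 genes then at 0 set to 3 counts. The sum of this list was among the limits that chose those members, so leaving them out lowers its values by construction. Acta2 went from -2.38 to -6.60 and Myh11 from -2.02 to -7.61, and Actg2, at -2.03 over all members, was at 0 in the 62 cells. The 2 called higher were Cspg4 (1.07 against 0.218) and Mcam (1.7 against 0.437), surface proteins used to mark pericytes. Without the members that stood apart they were at 1.1 and 1.66.

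The sum of the 22 markers varied with other measures of the same cells. Its Spearman rho was 0.604 with the sum of the other myelin genes, -0.446 with the percent of mitochondrial counts and 0.193 with S100b itself, over 67 cells that share library and correction. Kcna1 had quartiles of 6 and 15, and no second group of cells was drawn from these values. The members with the highest Apoe, chosen after their values were seen, stood at 291, 221, 201 and 187. In that order Kcna1 was at 0, 0, 1 and 0, and Kcna2 at 0, 1, 0 and 0. Their sums of the 22 markers were 67, 48, 36 and 36, with Gpr37l1 at 5, 8, 7 and 8. Whether they are a distinct kind of glia cell was not tested.

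**Figure D5:**
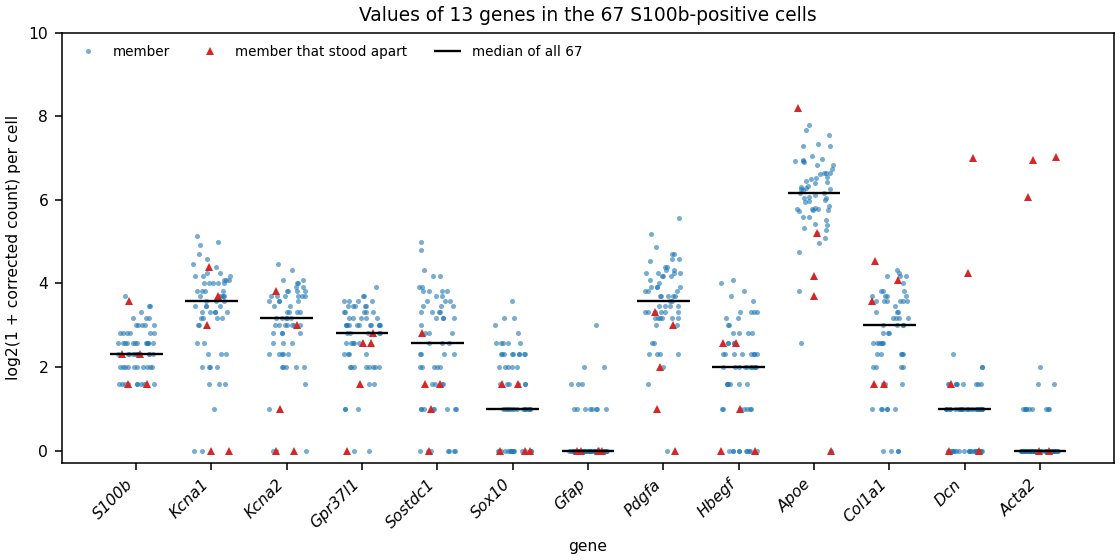
Points are the 67 members, placed by log2 of 1 plus the corrected count for 13 genes, where triangles are the 5 that stood apart and black lines the medians. Kcna1, Kcna2 and Gpr37l1 have medians of 11, 8 and 6 corrected counts, whereas Gfap and Acta2 are at 0 in most cells.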

How the data were processed

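The data were 2 droplet libraries (10x Genomics, 3′ ends of transcripts), 1 of 7495 wild-type colon cells and 1 of 4409 sorted cells of the Pdgfra reporter line. Per the submitters' processing notes, the authors aligned and counted with Cell Ranger (mm10) and processed cells with Seurat 3.1 in R 3.6.2. The deposited tables of counts hold a normalized score, counts corrected for depth by Seurat's regression and rounded to whole numbers, so no count model was used. A second deposited table of the wild-type library holds the natural log of 1 plus the same values (largest difference 5.33e-15) and the reporter's log table was not used. Corrected totals per cell, 6120 to 16389 and 2314 to 4432, are not the sequencing depth, which the correction removes.

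The 67 cells and all gene lists were chosen with earlier results of these data known. Means per cell were compared as log2 ratios with a pseudocount of 0.01 for genes with at least 20 corrected counts over both groups. A called gene differed 2-fold or more in mean and was detected in 10% or more of the cells on its higher side. Shares have exact Clopper-Pearson 95% intervals, and 3 counts was the limit used for a gene at 0. Cells could not be assigned to mice and each group is 1 library, so no test was possible. Classes were set by thresholds, in this order: epithelial Epcam at 5 or more, endothelial Pecam1 at 3 or more, pericytes Rgs5 at 10 or more, glia S100b at 2 or more, smooth muscle Myh11 at 5 or more and fibroblasts Col1a1 at 5 or more. Genes named were the 25 with the largest ratio among genes in at least 20% of glia cells, the 10 lowest among genes in at least 50% of the other cells, the 10 of highest mean outside mitochondrial and ribosomal protein genes, the 10 of largest variance over mean and the members of the lists. Others are named as chosen after their values were seen. Scrublet (in scanpy 1.11.5) marked 7 of 7495 cells, too few to be used. Gene positions were from GENCODE M21 (GRCm38), found for 466 of 466 named genes. Scripts were tested on simulated data and used Python 3.11.15, numpy 2.4.6, scipy 1.17.1, pandas 2.3.3 and matplotlib 3.10.9. Alternatives tried were other limits on the 4 genes, other comparison cells, pseudocounts of 0.1 and 0.001, thinning to 1000 corrected counts, stricter calls and leaving out cells. Values of a few listed genes are not reported here, although the lists' counts and medians include them.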

Additional observations from a re-analysis of the deposited data

Results flagged for a closer look

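The Pdgfra reporter library, which entered no comparison, held 11 of 4409 cells with S100b above 0 (0.249%), a signal in cells sorted for another type. Of these, 1 reached 2 corrected counts and so met the whole rule. The table of that library holds 9 of the 22 other glia markers, of which the 11 cells had 0 to 4 (median 1), against a median of 1 and a highest count of 5 over all its cells. Cryab and Entpd2 were above 0 in 4 and 5 of the 11. None of the 11 held more than 4 of the 9 markers, and the marker count of these cells did not stand above that of the library.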

How the results depend on the processing

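The number of members was 50 to 78 over the alternatives (50 with Epcam below 2, 55 with S100b at 3 or more, 78 with S100b at 1 or more, 62 without those that stood apart). Genes called higher numbered 959, and 440 after thinning each cell to 1000 corrected counts, 628 when 25% of cells were required and 398 at 4-fold. Genes called lower numbered 1360, and 293 after thinning, 574 at 25% of cells, 607 at 4-fold and 903 with a pseudocount of 0.1. The median log2 ratio of the 22 markers was 6.24, and 7.50 against smooth muscle cells alone, 4.42 and 7.09 with pseudocounts of 0.1 and 0.001, and 4.74 after thinning. Of 24 lists, 4 had a median at least 2-fold higher, and 2 with a pseudocount of 0.1, 2 after thinning and 2 in the members with the lowest fibroblast sums. Medians at least 2-fold lower numbered 8, and 5 against fibroblasts alone, 4 against smooth muscle cells alone, 4 with a pseudocount of 0.1 and 5 after thinning. Some of the 8 rest on undetected genes. With genes at 0 set to 3 counts, the enteric neuron, immune and connexin lists had medians of 1.14, -0.08 and 0.74, no longer 2-fold lower. The fibroblast percent was 12.6 to 20.9. Directions turned against fibroblasts alone for the smooth muscle and pericyte list (0.64), Acta2 (0.28), Tagln (0.31) and Myh11 (3.23), against smooth muscle cells alone for Cd74 (1.31) and Gsn (1.502), and after thinning for Tubb3 (-0.58), for which the cause was not tested. When the 5 members that stood apart were also left out, the values against fibroblasts were -2.59, -3.94, -2.81 and -2.37. A smooth muscle gene sum was among the limits that chose those members, so leaving them out lowers these values by construction. The class rule also held Myh11 below 5 in fibroblasts but not in glia cells. Cd74 (0.94) and Gsn (1.34) still turned. Over 164 named genes, 2015 ratios moved by less than the limit of 1.5-fold, 442 by more and 8 turned. Without the 5 members that stood apart, 893 of the genes called higher and 1331 of those called lower were called again, of 928 and 1559 then called. No paired analysis was possible because each group is 1 library. The values rest on 67 cells of 1 pool of mice, and free RNA in droplets was not removed.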

Other observations

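Ribosomal protein genes, which are in none of the lists and were chosen after their values were seen, took a smaller share of the corrected counts of glia cells than of any other class. The median share was 7.65% in glia cells (lowest 3.73%, highest 14.7%), against 18.0% in fibroblasts, 13.7% in smooth muscle cells, 13.8% in pericytes, 15.1% in endothelial cells and 18.6% in epithelial cells. Of 101 such genes, 65 were called lower and 0 higher, with a median log2 ratio of -1.11. Of the 67 glia cells, 65 lay below the 5th percentile of the fibroblasts, which was 11.9%. Across the 67 cells this share had a Spearman rho of -0.556 with the sum of the 22 glia markers and 0.362 with the mitochondrial percent, over cells of 1 library. Since counts are shares of a corrected total, a lower share of these genes and a higher share of others cannot be told apart.

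Beyond the lists and the 25 leading genes, several genes above 0 in more than 50% of glia cells had large ratios and were chosen after their values were seen. Vwa1, a matrix protein gene, was at a mean of 12.4 against 0.434 (log2 ratio 4.80), Sema3b, a secreted axon guidance cue, at 4.67 against 0.086 (log2 ratio 5.61) and Nrn1, a neurite growth gene, at 3.7 against 0.0559 (log2 ratio 5.82). Enzyme genes were Aspa, which splits N-acetylaspartate, at 4.25 against 0.179, and Gatm, the first step of creatine synthesis, at 2.18 against 0.0425. The lipid transporter gene Abca8b, a relative of Abca8a, was at 2.96 against 0.102.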
